A study of Mus musculus with 4 samples.

Results

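A set of 10 genes of the MYST histone acetyltransferase complexes was followed in an RNA immunoprecipitation of CUGBP1: the 5 acetyltransferases *Kat5*, *Kat6a*, *Kat6b*, *Kat7* and *Kat8*, and the subunits *Meaf6*, *Kansl1*, *Brpf1*, *Ing4* and *Ing5*. They were taken by name, as the probe sets annotated to exactly 1 of these genes, with *Kat6a*, *Kat6b*, *Kat7* and *Kat8* also looked up under their older symbols *Myst3*, *Myst4*, *Myst2* and *Myst1*. This gave 10 genes on 11 probe sets, *Kansl1* having 2, of the 19452 genes and 21044 probe sets that name 1 gene. The genes were chosen by their difference between CUGBP1 IP and control IgG on these same arrays, in which *Meaf6* and *Kansl1* stood high, so that difference is given here for each member as a description, and where members called by limma are counted, the share of all genes called stands beside the count and nothing is read from it.

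The RNA came from proliferating C2C12 (LKO-1) cells, a mouse myoblast line derivative that stably carries an empty lentiviral vector, is kept in puromycin and was held below 70% confluency so that it would not differentiate. Cytoplasmic lysate was incubated either with the monoclonal antibody 3B1 against CUGBP1, which gave 2 CUGBP1 IP arrays, or with normal IgG, which gave 2 control IgG arrays, so that the groups shared cells, medium and vector and differed, as far as the labels say, in the antibody alone. The RNA of each immunoprecipitate was hybridised to 1 Affymetrix Mouse Gene 1.0 ST array. All cells were of 1 stable line, and nothing in the labels says that the replicates were separate cultures, so that the spread, and any p-value from it, covers only the difference between these arrays, which may be technical.

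MYST proteins acetylate lysines of histone tails and work in multi-subunit complexes that carry the readers and scaffolds. KAT6A and KAT6B (MOZ and MORF) and KAT7 (HBO1) are held by BRPF or JADE scaffolds together with an ING protein and MEAF6, KAT8 (MOF) works in the MSL and NSL complexes, and KAT5 is the enzyme of the NuA4/TIP60 complex, which also holds MEAF6. CUGBP1, the product of *Celf1*, binds GU-rich elements of mRNAs and can recruit deadenylases that shorten the poly(A) tail, besides its part in splicing, and in muscle it is best known from myotonic dystrophy.

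Values are intensities divided by the 5th percentile of their own array, so that 1 is close to the dimmest probe sets. The signal-to-negative ratio divides the mean intensity in CUGBP1 IP by that in control IgG, and log2 differences are the mean log2 value of CUGBP1 IP minus that of control IgG. A probe set counted as above background when it exceeded the 95th percentile of 1198 olfactory and vomeronasal receptor probe sets on the same array. The limit was 1.23 and 1.29 for CUGBP1 IP and 1.09 and 1.16 for control IgG. By this limit 58.3% and 63.0% of probe sets were above background in CUGBP1 IP replicates 1 and 2 and 39.6% and 57.2% in control IgG replicates 1 and 2, control IgG replicate 1 being the dimmest array. The median log2 difference over all probe sets was 0.29, moving to 0.00 when arrays were scaled to their medians and to -0.02 after quantile normalization, so small differences are also given relative to that median. Of 5 myoblast markers 4 were above background on all 4 arrays, *Cdh15* missing it in control IgG replicate 1. Of 11 markers of other cell types or of differentiated muscle 1 was, the keratin gene *Krt8*. *Ckm*, of differentiated muscle, missed it only in control IgG replicate 1, at 1.08. An immunoprecipitate cannot tell more transcript in the cells from a larger share of it bound by the antibody target, since input RNA was not analysed here.

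*Meaf6* had the highest ratio of the members. It encodes the small subunit shared by the MOZ/MORF, HBO1 and NuA4/TIP60 complexes. Its intensity was 15.86 and 27.97 in CUGBP1 IP replicates 1 and 2 and 1.22 and 2.41 in those of control IgG. Both CUGBP1 IP arrays stood far above both control IgG arrays, and all 4 values were above background. The signal-to-negative ratio was 12.1, from means of 21.9 ± 8.56 and 1.82 ± 0.841 (SD, n = 2 each), which placed *Meaf6* at rank 22 of the 21044 probe sets. The log2 difference was 3.62 with a standard error of 1.07. The replicates of each group were well apart, replicate 2 being 1.76 times replicate 1 in CUGBP1 IP and 1.98 times in control IgG, against medians of 1.11 and 1.13 over all probe sets. The ratio of a single CUGBP1 IP array to a single control IgG array accordingly ran from 6.58 to 22.9.

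*Kansl1* came next. It encodes a scaffold of the NSL complex, in which KAT8 is the enzyme. Its brighter probe set read 8.27 and 8.34 in CUGBP1 IP and 1.17 and 1.91 in control IgG. The CUGBP1 IP arrays were nearly equal and both exceeded both control IgG arrays. The ratio was 5.39, from means of 8.31 ± 0.0495 and 1.54 ± 0.523 (SD, n = 2 each), at rank 205 of all probe sets, and the log2 difference was 2.47 with a standard error of 0.73. The ratio over single pairs of arrays ran from 4.33 to 7.13. A second *Kansl1* probe set, annotated through cDNA records and no RefSeq transcript, read 1.09 and 1.26 in CUGBP1 IP and 1.06 and 1.06 in control IgG. All 4 of these values lay within background, so the second probe set gave no fold for the gene.

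**Figure D1:**
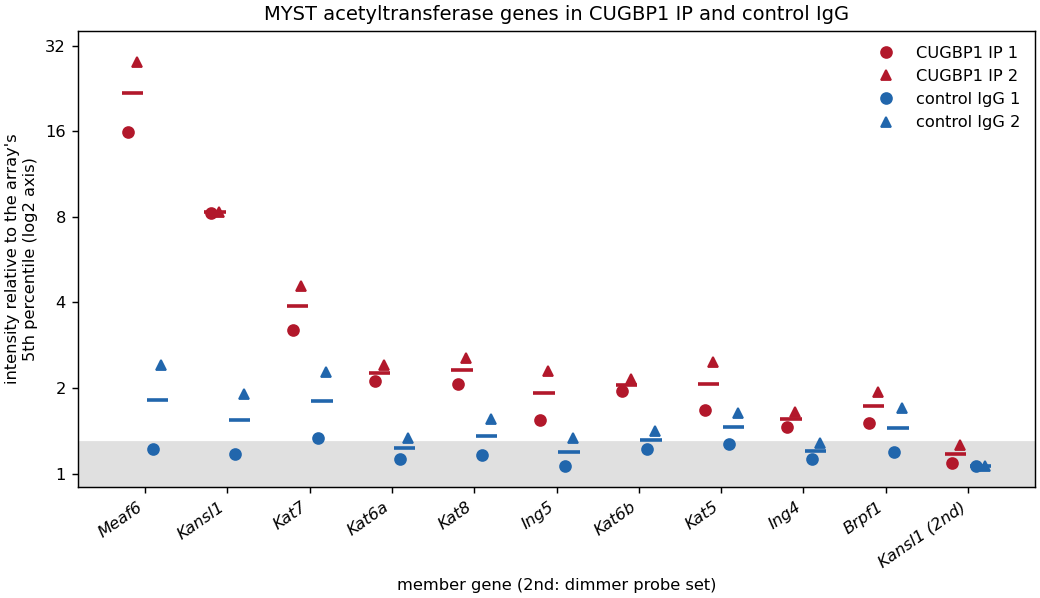
Intensity of each member on the 4 arrays, relative to the 5th percentile of the array, on a log2 axis; points are single arrays and short bars are group means, red for CUGBP1 IP and blue for control IgG, and the grey band reaches the highest of the 4 background limits, 1.29. The CUGBP1 IP points of *Meaf6* (15.86 and 27.97) and of the brighter *Kansl1* probe set (8.27 and 8.34) stand apart from those of the other members, which stay at or under 4.56.

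The 5 acetyltransferases had lower ratios, from 1.42 to 2.15 with a median of 1.70. *Kat7*, the HBO1 enzyme, was the highest of them, with intensities of 3.19 and 4.56 in CUGBP1 IP and 1.34 and 2.27 in control IgG, a ratio of 2.15 and a log2 difference of 1.13 (SE 0.53). *Kat6a*, the MOZ enzyme, read 2.11 and 2.41 against 1.13 and 1.34, a ratio of 1.83 and a log2 difference of 0.87 (SE 0.30). In both genes each CUGBP1 IP array was above each control IgG array, as in 67.1% of all genes.

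*Kat8*, the enzyme of the NSL and MSL complexes, read 2.06 and 2.56 in CUGBP1 IP and 1.16 and 1.56 in control IgG, a ratio of 1.70 and a log2 difference of 0.77 (SE 0.33). *Kat6b*, the MORF enzyme, read 1.96 and 2.15 against 1.22 and 1.41, a ratio of 1.56 and a log2 difference of 0.65 (SE 0.30). Gene tables list 2 pseudogenes of *Kat6b*, and whether its probes also bind their RNA was not tested. *Kat5*, the enzyme of NuA4/TIP60, was the lowest of the 5, with 1.67 and 2.47 in CUGBP1 IP, 1.27 and 1.64 in control IgG, a ratio of 1.42 and a log2 difference of 0.49 (SE 0.32). Both CUGBP1 IP arrays exceeded both control IgG arrays in these 3 genes too, as in 67.1% of all genes. In *Kat5* the lower CUGBP1 IP array was only 1.02 times the higher control IgG array. Relative to the median of all probe sets, the log2 differences of the 5 acetyltransferases were 0.84 for *Kat7*, 0.58 for *Kat6a*, 0.48 for *Kat8*, 0.36 for *Kat6b* and 0.20 for *Kat5*, and after quantile normalization they were 0.10, 0.30, 0.13, -0.02 and -0.24, *Kat6b* and *Kat5* changing direction.

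Among the reader and scaffold subunits, *Ing5*, whose plant homeodomain finger binds methylated histone H3, read 1.54 and 2.29 in CUGBP1 IP and 1.06 and 1.33 in control IgG, a ratio of 1.60. The control IgG replicate 1 value of *Ing5* lay within background, and the other 3 arrays were above it. *Ing4*, a related reader found with KAT7, read 1.46 and 1.65 against 1.13 and 1.28, a ratio of 1.29. *Brpf1*, the scaffold that activates KAT6A and KAT6B, read 1.51 and 1.94 against 1.19 and 1.70, a ratio of 1.19. It was the only member gene whose groups overlapped, CUGBP1 IP replicate 1 being below control IgG replicate 2. The log2 differences were 0.66 (SE 0.26) for *Ing5*, 0.37 (SE 0.22) for *Ing4* and 0.27 (SE 0.28) for *Brpf1*, the last of which became -0.02 when arrays were scaled to their medians and -0.33 after quantile normalization, where *Ing4* was -0.05 as well.

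In the order of log2 differences from *Meaf6* down to *Brpf1*, the gap between *Kansl1* and *Kat7* was 1.35 against a combined standard error of 0.91. *Meaf6* and *Kansl1* were 1.14 apart against 1.29, and the 8 genes from *Kat7* to *Brpf1* followed each other at steps of 0.02 to 0.25 against combined standard errors of 0.35 to 0.62. The steps among these 8 genes, and the one between *Meaf6* and *Kansl1*, were smaller than these combined standard errors. The combination treats the errors of neighbouring genes as independent, although all genes were read on the same arrays, so it is only a rough scale. Since the genes were chosen by these differences no gap was tested.

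**Figure D2:**
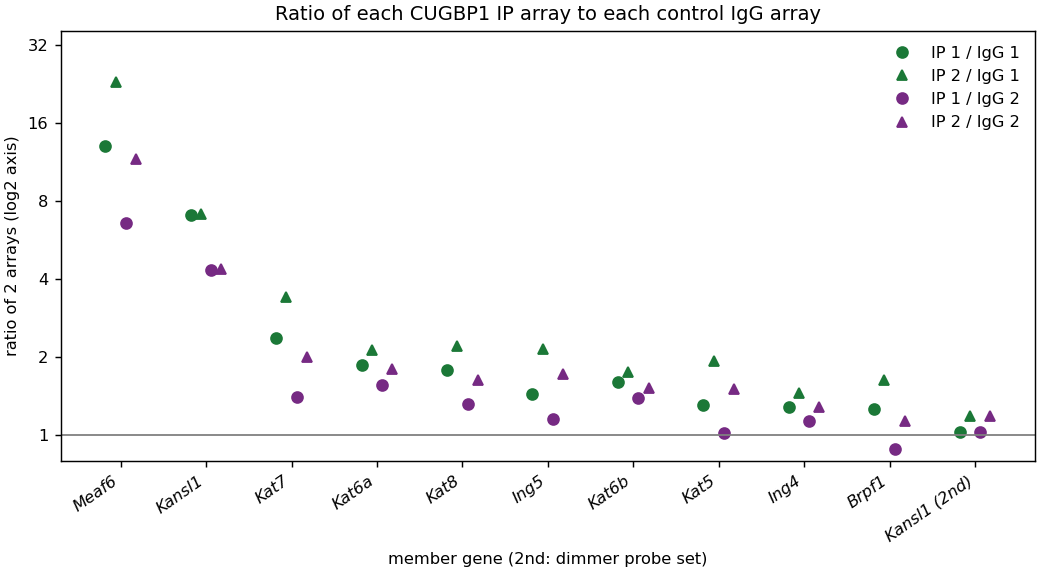
Ratio of each CUGBP1 IP array to each control IgG array for every member, on a log2 axis; each point is 1 of the 4 pairs of arrays. For *Meaf6* the pairs run from 6.58 to 22.9 and for the brighter *Kansl1* probe set from 4.33 to 7.13, while *Brpf1* has a pair below 1, at 0.888.

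By limma over all 21044 probe sets with Benjamini-Hochberg adjustment, 2 of the 10 member genes were called higher in CUGBP1 IP at an adjusted p under 0.05, *Meaf6* and *Kansl1*, and none was called lower, while 1.94% of all 19452 genes were called higher. The same 2 genes lay in the top 5% of ratios, where 4.97% of all genes were. The study used that share to mark association with CUGBP1, but over its own ranked set of transcripts, of a different size. Here it was taken over 21044 probe sets, 1053 of which lay above the cut at a ratio of 2.57. The 2 cuts need not be equal, so a gene in the top 5% here is not necessarily among the study's associated mRNAs. Both CUGBP1 IP arrays exceeded both control IgG arrays in 9 of the 10 members and in 67.1% of all genes. Because the members were selected on this contrast, nothing is read from these counts. The 8 members other than *Meaf6* and *Kansl1* had a median ratio of 1.58, and the median over all genes was 1.22. Of these 8 members 7 were above background on all 4 arrays, as were 7063 of all 19452 genes. The 8 members had a median log2 difference of 0.65, and all probe sets above background on all 4 arrays had 0.73. The 8 were what remained after the 2 highest members were set apart, and *Ing5* did not pass that background filter. For these reasons the medians of the 8 are not compared with the others. Neither *Meaf6* nor *Kansl1* was called when any 1 of the 4 arrays was left out, their log2 differences then running from 3.13 to 4.11 and from 2.12 to 2.83. Such a fit keeps 1 residual degree of freedom, and by limma it called no probe set of the whole table, 1062 to 6085 having an unadjusted p under 0.05. On all 4 arrays without the intensity trend limma also called no probe set, *Meaf6* and *Kansl1* included, while 4757 had an unadjusted p under 0.05.

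The other subunits of the complexes were given by lists of 35 genes. Of these 1 was called higher in CUGBP1 IP by limma, none was called lower, and 16 had an unadjusted p under 0.05, as 29.4% of all genes did in either direction. The call of 1 in 35 stands beside the 1.94% of all genes called higher. Their ratios ran from 1.12 to 6.92 with a median of 1.53. Their median log2 difference was 0.62, beside 0.29 over all probe sets and 0.73 over those above background on all 4 arrays. In 31 of the 35 both CUGBP1 IP arrays exceeded both control IgG arrays, as in 67.1% of all genes. *Epc1*, a scaffold of NuA4/TIP60, was the gene called higher, though its ratio was not the highest of the 35. It read 3.97 and 5.41 in CUGBP1 IP and 1.16 and 1.59 in control IgG, a ratio of 3.41, and by limma its log2 difference was 1.77 with a standard error of 0.52 (adjusted p = 0.0409). *Epc1* lost its call without the intensity trend (limma adjusted p = 0.143) and when any 1 array was left out, as every called probe set did.

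In the NuA4/TIP60 list of 16 genes the highest ratio belonged to *Morf4l2*, a paralog of the chromodomain subunit MRG15, at 11.74 and 15.12 in CUGBP1 IP and 1.50 and 2.38 in control IgG. Its ratio was 6.92 and its log2 difference 2.82 (SE 0.96, limma adjusted p = 0.0759), which missed the threshold as deposited. *Morf4l2*, *Epc1* and *Yeats4*, a reader of acetylated histones with a ratio of 2.94, were in the top 5% of ratios, and the list had a median of 1.44. The lowest ratio, 1.20, was that of *Dmap1*, whose log2 difference of 0.26 (SE 0.21, limma adjusted p = 0.327) turned to -0.03 with median scaling and -0.23 with quantile normalization.

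The partners of KAT8 were split into its MSL and NSL complexes. In the MSL list *Msl2*, a ubiquitin ligase, read 10.11 and 13.47 in CUGBP1 IP and 1.69 and 3.47 in control IgG, a ratio of 4.57 (log2 difference 2.27, SE 0.99, limma adjusted p = 0.139). *Msl1*, the scaffold, read 7.40 and 8.26 against 1.44 and 2.97, a ratio of 3.55 (log2 difference 1.92, SE 0.82, limma adjusted p = 0.131). *Msl3*, the chromodomain subunit, had a ratio of 1.70. Thus 2 of the 3 MSL genes were in the top 5% of ratios, 2 had an unadjusted p under 0.05 and none was called. Over all genes 4.97% were in the top 5%, and 29.4% had an unadjusted limma p under 0.05 in either direction. None of the 8 other NSL genes was called or in the top 5%, 3 having an unadjusted p under 0.05. They had a median ratio of 1.54 and ran from 1.37 for *Hcfc1*, the host cell factor (limma adjusted p = 0.239), to 2.26 for *Kansl2* (limma adjusted p = 0.299), both of whose log2 differences turned negative after quantile normalization (-0.13 and -0.27). A pseudogene of *Kansl2* is listed in gene tables, and its part in that signal was not tested. *Kansl1* itself, at 5.39, was above every gene of that list. The difference between the MSL and NSL lists was not tested.

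Of all genes 29.4% had an unadjusted limma p under 0.05 in either direction, as did each of the 5 other BRPF and JADE scaffolds. None of these scaffolds was called. Their ratios ran from 1.29 for *Jade2* (limma adjusted p = 0.160) to 1.99 for *Jade1*, which read 2.44 and 4.03 in CUGBP1 IP and 1.19 and 2.06 in control IgG (limma adjusted p = 0.141). In the list of the other ING genes and the *Kansl1* paralog, none of 4 was called and 1 had an unadjusted p under 0.05. *Ing3*, the ING subunit of NuA4/TIP60, had the highest ratio there, and its log2 difference was 0.73 with a standard error of 0.30 (limma adjusted p = 0.118). *Kansl1l*, the paralog of *Kansl1*, had the lowest, 1.12, with 1.40 and 1.47 in CUGBP1 IP and 1.13 and 1.44 in control IgG, so that its groups overlapped. Its log2 difference of 0.17 (SE 0.22, limma adjusted p = 0.507) turned to -0.12 with median scaling and -0.23 with quantile normalization.

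**Figure D3:**
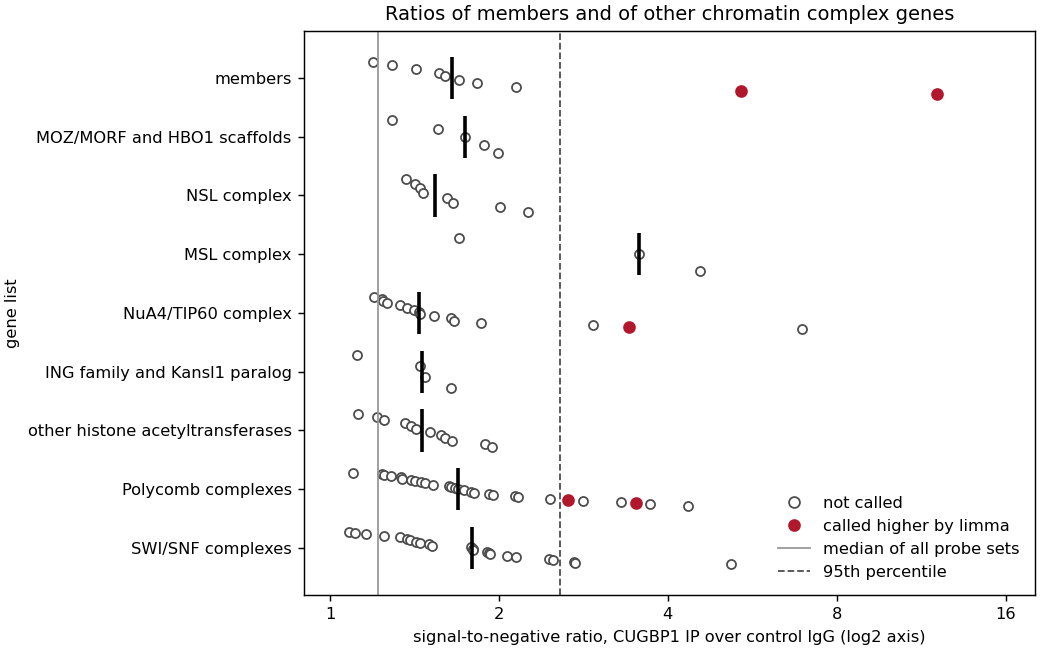
Signal-to-negative ratio on a log2 axis for the members and for the genes of each list, 1 point per gene, filled where limma called the gene higher in CUGBP1 IP; black bars mark list medians, the solid line is the median of all probe sets and the dashed line the 95th percentile, 2.57. *Meaf6* (12.1) and *Kansl1* (5.39) are the filled members, *Epc1* (3.41) is the filled gene among the other MYST subunits, and the median of the MSL genes, 3.55, lies right of the dashed line.

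Histone acetyltransferases outside the MYST family were measured beside the MYST enzymes. Of 12 such genes none was called by limma, 4 had an unadjusted p under 0.05, against the 29.4% of all genes, and none was in the top 5%. The 5 MYST enzymes had a median of 1.70, but as they were chosen on this contrast, that median is not compared. The 12 genes outside the family had a median of 1.46. *Crebbp*, encoding the CBP coactivator, was the highest at 1.94, from 2.74 and 2.79 in CUGBP1 IP and 1.13 and 1.72 in control IgG (log2 difference 0.99, SE 0.38, limma adjusted p = 0.108). *Taf1*, a TFIID subunit, was the lowest at 1.12 (limma adjusted p = 0.383), and its log2 difference of 0.17 turned negative with median scaling (-0.11) and with quantile normalization (-0.05). In 2 further groups of chromatin complexes, 2 of 29 Polycomb genes were called higher by limma, *Jarid2* and *Rnf2*, 12 had an unadjusted p under 0.05 and 6 were in the top 5% of ratios, with a median ratio of 1.69. None of 24 SWI/SNF genes was called by limma, 9 had an unadjusted p under 0.05 and 3 were in the top 5%, *Smarcd1*, *Pbrm1* and *Dpf1*, with a median ratio of 1.79. Over all genes limma called 1.94% higher, 29.4% had an unadjusted p under 0.05 in either direction and 4.97% were in the top 5%.

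The members' differences depended on how the arrays were put on a common scale. Under quantile normalization the ratio of *Meaf6* was 5.05 and that of *Kansl1* 2.64, with log2 differences of 2.35 and 1.40. Of the other members, *Kat6a*, *Ing5*, *Kat8* and *Kat7* stayed positive on that scale, at 0.28, 0.25, 0.11 and 0.08, while *Kat6b*, *Ing4*, *Kat5* and *Brpf1* turned negative, at -0.04, -0.05, -0.26 and -0.33. Another alternative, chosen after seeing the data, subtracted the array floor of 1 from the group means before the ratio. The ratio of *Meaf6* was then 25.7 and that of *Kansl1* 13.5, and the other member genes ran from 1.63 for *Brpf1* to 5.36 for *Kat6a*. Such a subtraction raises any ratio above 1, so the rise itself shows nothing. Whether the deposited ratios are compressed near the floor was not tested.

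**Figure D4:**
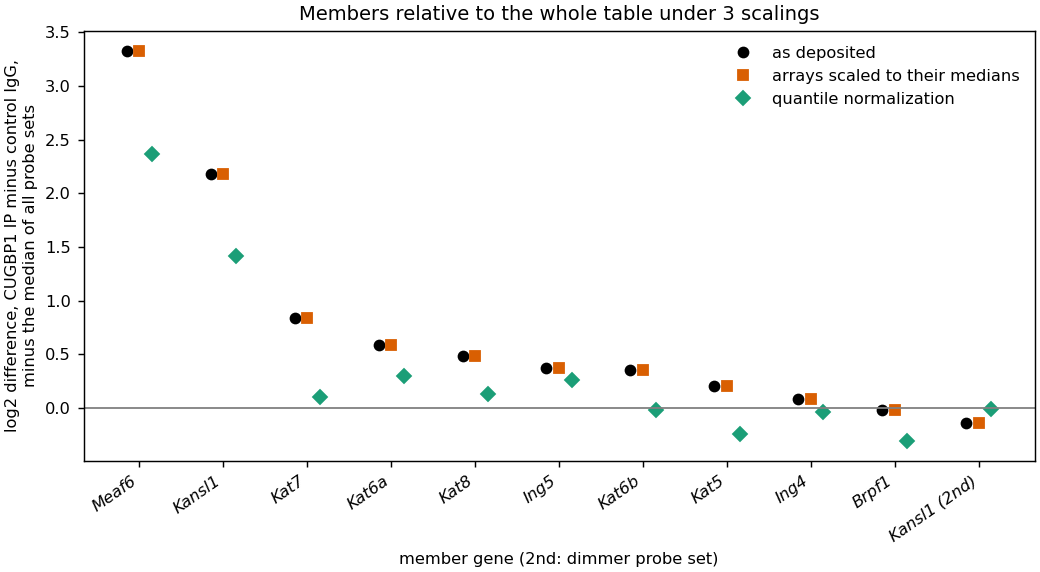
Log2 difference of each member, CUGBP1 IP minus control IgG, less the median of all probe sets, under the deposited scaling, median scaling and quantile normalization. *Meaf6* lies at 3.33 as deposited and 2.37 after quantile normalization and *Kansl1* at 2.19 and 1.41, while *Kat6b*, *Ing4* and *Kat5* pass from above 0 to below it and *Brpf1* is below 0 in each.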

How the data were processed

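Intensities of 25175 probe sets were deposited for 4 arrays. Per the study's methods the authors divided each intensity by the 5th percentile of its array; the summarising program, background treatment and genome build are unnamed in the sources used here. Of the probe sets, 21044 named 1 gene, 1492 several and 2639 none, and current symbols were found through gene identifiers for 20959. A gene with several probe sets, as 876 had, was represented by its brightest, by the mean of all 4 arrays. Log2 intensities, with no offset and no filter, were fitted with limma 3.58.1 in R 4.3.3 (lmFit, eBayes with intensity trend) on the 2 groups of 2, and p-values were adjusted over all 21044 probe sets. The procedure was run on simulated data in which the arrays varied independently. In the real data the replicate differences of the groups were correlated (r = 0.64), a setting that the simulation did not cover. With 2 arrays a group, their number limits the precision. The genes named were every member and every gene of the MYST and other acetyltransferase lists that limma called. The genes of highest and of lowest ratio in each of those lists were named too. *Yeats4*, *Msl1*, *Jade3*, *Phf20*, *Jarid2*, *Rnf2*, *Smarcd1*, *Pbrm1*, *Dpf1*, *Cdh15*, *Krt8* and *Ckm* were added after their values were seen. Members and lists were chosen with earlier results of these data known. Alternatives were median scaling, quantile normalization, an offset of 1, a background filter, no intensity trend, a replicate block and each array left out.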

Additional observations from a re-analysis of the deposited data

How the results depend on the processing

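*Meaf6* and *Kansl1* were the 2 members in the top 5% of ratios under every setting run. In all, 411 probe sets were called higher and 29 lower. The higher count was 1362 with median scaling, 763 with an offset of 1, 270 among the 7727 that passed the background filter, and 11809 with the replicate block. The lower count was 18 after quantile normalization and 0 after the background filter (0 also at an unadjusted limma p under 0.05). Without the intensity trend limma called 0 probe sets higher and 0 lower, 0 members and 0 other subunits, while 4757 probe sets, 7 members and 17 other subunits had an unadjusted p under 0.05. With any 1 array left out the counts were all 0, while 1062 to 6085 probe sets, 0 to 6 members and 0 to 23 other subunits had an unadjusted p under 0.05. Nothing is read from the members' counts, since the members were chosen on this contrast.

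The labels do not say that a replicate number marks a shared lysate. Replicate differences of the groups correlated across probe sets (r = 0.64). With the replicate block 9 members and 31 other subunits were called, beside 11809 of all 21044 probe sets called higher. Of the other subunits 4 were called with median scaling (*Epc1*, *Morf4l2*, *Jade3* and *Phf20*), beside 1362 of 21044 probe sets called higher. Quantile normalization and the background filter called 2 each (*Epc1* and *Morf4l2*), beside 423 of 21044 and 270 of 7727 probe sets. An offset of 1 called 2 (*Epc1* and *Jade3*), beside 763 of 21044 probe sets.

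Log2 differences were followed under each setting for the members and for the called, highest and lowest genes of the MYST and other acetyltransferase lists. Of these, median scaling turned negative *Brpf1* -0.0213, *Dmap1* -0.0271, *Taf1* -0.11, *Kansl1l* -0.12 and the second *Kansl1* probe set -0.14. Quantile normalization turned negative the second *Kansl1* probe set -0.0294, *Kat6b* -0.0369, *Ing4* -0.0537, *Taf1* -0.0528 and *Hcfc1* -0.13. It did the same to *Dmap1* -0.23, *Kansl1l* -0.23, *Kat5* -0.26, *Kansl2* -0.27 and *Brpf1* -0.33. Further genes of the lists, not named here, also turned negative after quantile normalization. With 1 array left out, *Kansl1l* ran from -0.0054 to 0.34, turning negative without control IgG replicate 1. The cause of these changes was not tested.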
